A study of Danio rerio with 3 samples.

Results

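The outflow tract, the arterial end of the embryonic heart tube, was compared with the neighbouring ventricle in hearts dissected from untreated wild-type TL zebrafish embryos of 2 dpf (days post fertilization). The measurements came from tomo-seq, in which a straightened frozen heart is cut into consecutive sections and a barcoded transcript library is made from the RNA of each section. Hearts of 3 embryos were cut into 117 tissue sections of 10 µm along the axis between the outflow pole and the inflow pole. By the windows used here, section numbers rose from outflow tract to ventricle in heart 1 and from ventricle to outflow tract in hearts 2 and 3. Of these sections, 18 fell in an outflow tract window and 21 in a ventricle window, and the reads of each window were summed within each heart, which gave 6 region libraries. The outflow tract window held sections 4 to 10 of heart 1, 91 to 96 of heart 2 and 35 to 39 of heart 3. The ventricle window held sections 12 to 18 of heart 1, after the order of an inverted stretch of sections had been corrected, 80 to 88 of heart 2 and 30 to 34 of heart 3. The windows of heart 1 lay within regions drawn by the study, which ended its ventricle at section 22. By the reads of the heart muscle gene myl7, the study took the first 10 sections as most likely non-myocardial arterial pole. Its borders rest on a clustering of genes and on the reads of known marker genes. Differences in heart 1, above all in heart muscle genes, are therefore not independent of how its windows were set. The windows of hearts 2 and 3 were placed by the levels of ventricle myosin heavy chain (vmhc) and atrial myosin heavy chain (myh6).

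The outflow tract carries blood from the ventricle to the arteries of the pharyngeal arches. It is built from second heart field progenitors, which add muscle at the arterial pole and later give rise to smooth muscle, together with endocardium, cushion matrix and cells of the neural crest. The ventricle beside it is working myocardium, dense with sarcomeres and mitochondria and marked in the embryo by its own myosin and by natriuretic peptides. A dissected heart can keep tissue of the pharyngeal region, where arch mesenchyme, cartilage precursors, endoderm and skin lie against the arterial pole.

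The libraries differed widely in depth. The outflow tract windows held 1667108 gene reads in heart 1 and 2895368 in heart 2, but 14700 in heart 3. The ventricle windows held 1384396, 423169 and 224515 gene reads. The outflow tract sections of heart 3 held 211 to 6182 reads each, with 28 to 167 genes detected. Levels are therefore given as reads per 10000 gene reads of a library, and 3 reads, the limit that a count of 0 allows, correspond to 0.0104 to 0.0709 per 10000 in the libraries of hearts 1 and 2, 0.134 in the ventricle window of heart 3 and 2.04 in its outflow tract window. These limits, and the intervals given with levels, cover counting error only, since no source states whether molecular identifiers were counted. A single row, ENSDARG00000080337, took between 4.61% and 38.3% of the reads of a library. Symbols in capitals are those of the human gene matched to a zebrafish row and are not the zebrafish name.

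The label of the window was checked against has2 and vmhc, the genes that mark cushion matrix production and ventricular muscle. Their levels are given here without a test because such genes place the borders. The gene vmhc was nevertheless kept in the fits, and the counts of calls below include it. In heart 1, has2, which encodes a hyaluronan synthase, had 164 reads in the outflow tract window (0.984 per 10000, 95% Wilson interval 0.844 to 1.15) and none in the ventricle window. Of these reads, 84.8% came from 1 section. In hearts 2 and 3, has2 had no reads in the outflow tract window and 10 and 24 reads in the ventricle window. In heart 2, the 10 ventricle reads came from section 85 (1.63 per 10000). In that heart has2 was also read in sections 89 and 90, which lie between the windows, with 22 and 7 reads (0.558 and 0.100 per 10000). There this marker was thus read beside the outflow tract window and within the ventricle window, and not in the outflow tract window. The has2 signal of the outflow tract window was thus seen in heart 1 and not in heart 2, where even a level of 0.0104 per 10000 would have given 3 reads, and it was not detectable at the depth of heart 3. The level of vmhc was 1.87 per 10000 in the outflow tract window against 73.3 in the ventricle window of heart 1, and 0.252 against 49.8 in heart 2. In heart 3 the order was turned, with 133 per 10000 in the outflow tract window and 66.8 in the ventricle window. The name outflow tract window is therefore kept as a label of position at the arterial end. The window held has2 reads in heart 1 alone and was low in vmhc in hearts 1 and 2, and neither marker bore out the name in heart 3.

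The regulator tbx2b, which represses the chamber muscle programme, had 0.870 per 10000 in the outflow tract window and 0.0289 in the ventricle window of heart 1, 1.42 and 0.520 in heart 2, and no reads in either window of heart 3. The level of bmp4, a ligand made by non-chamber myocardium, was lower in the outflow tract window, with 0.612 against 1.83 per 10000 in heart 1 and 0.249 against 2.01 in heart 2. The reads of myh6 were few in every window, from 0 to 41. The summed level of 15 thick filament rows was 10.7 per 10000 in the outflow tract window and 351 in the ventricle window of heart 1, 1.51 and 255 in heart 2, whereas heart 3 had 369 and 311. This sum contains vmhc and myl7, so its fall in hearts 1 and 2 restates how the borders were placed and is a description. Because of the low depth of the outflow tract window of heart 3, each result is given for hearts 1 and 2 alone, with heart 3 beside it, and for all 3 hearts.

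**Figure D1:**
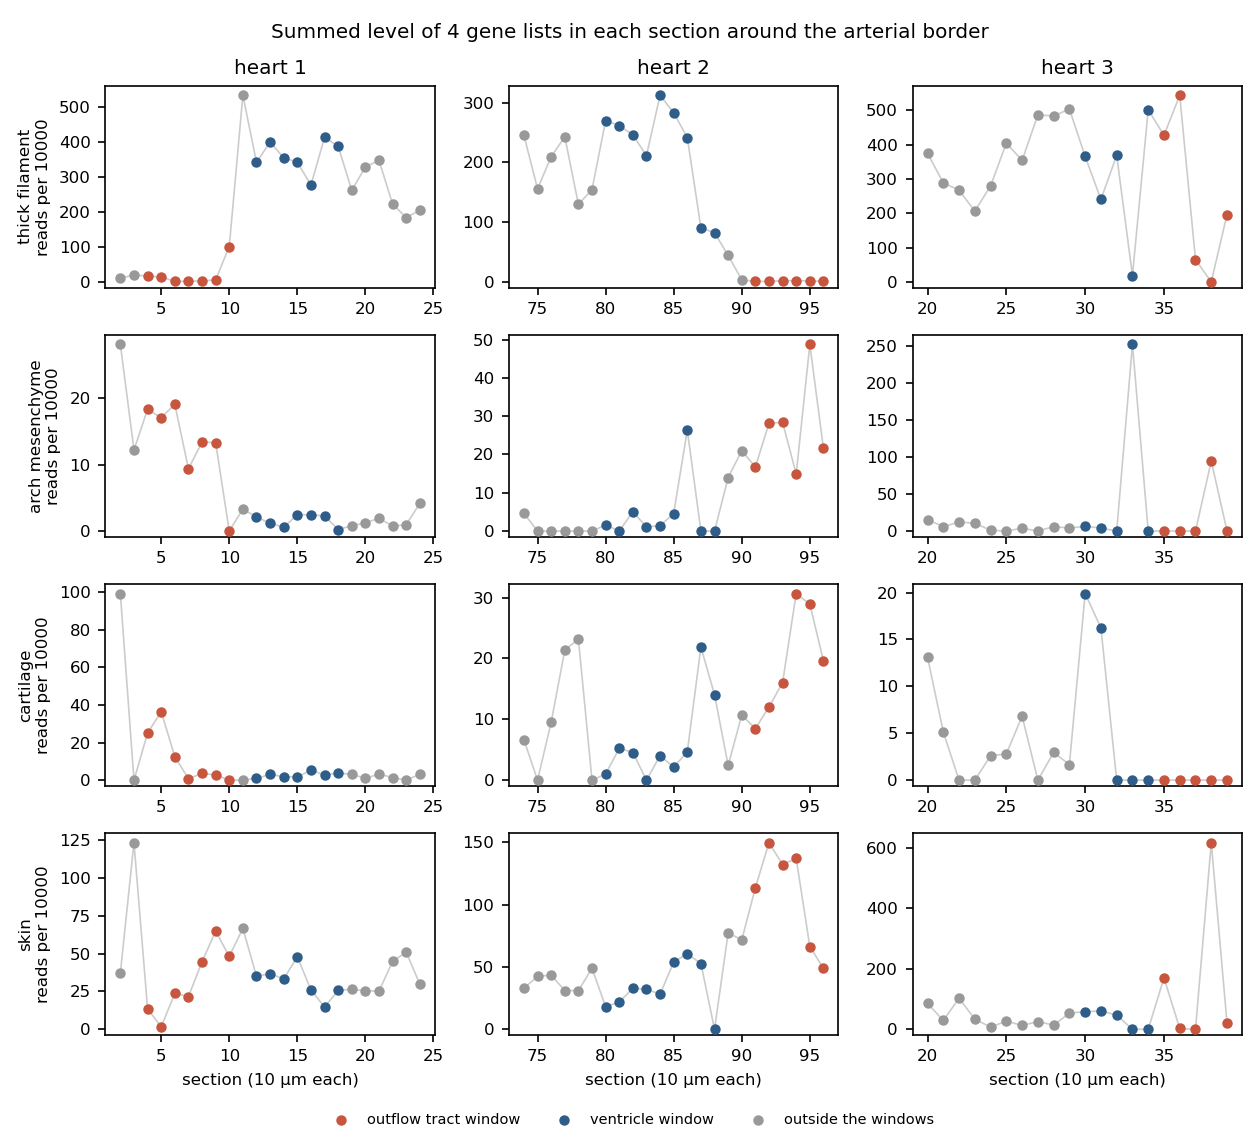
Summed level of 4 gene lists in each section around the arterial border, in reads per 10000 gene reads, against section number, for hearts 1 to 3 in columns; colours give the window. Thick filament reads drop at the border in hearts 1 and 2, where the outflow tract sections lie at no more than 101.1 and 2.22 per 10000, but reach 543.7 per 10000 in an outflow tract section of heart 3.

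The thick filament level changed over few sections at the border in hearts 1 and 2. In the 7 outflow tract sections of heart 1 the thick filament level ran from 1.60 to 101.1 per 10000 with a median of 5.86, and in the 7 ventricle sections from 276.5 to 412.7. In heart 2 the 6 outflow tract sections lay between 0.788 and 2.22 per 10000 and the 9 ventricle sections between 82.4 and 312. The sections of the windows did not overlap in either heart. Between the windows, section 11 of heart 1 had 533 per 10000, and sections 89 and 90 of heart 2 had 44.3 and 3.63. Heart 1 had an intermediate section inside its outflow tract window. The vmhc level was 0.169 per 10000 in section 9, 34.97 in section 10 and 292.5 in section 11. In heart 3 the sections of the windows overlapped, with 0 to 543.7 per 10000 in the outflow tract sections and 18.5 to 502 in the ventricle sections.

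With the heart as a block and the heart as the replicate, 254 of 7758 genes passed an adjusted p of 0.05 over hearts 1 and 2 (a negative binomial quasi-likelihood test with Benjamini-Hochberg adjustment). Of these, 105 genes were higher in the outflow tract window, 1.35% of the genes tested, and 149 were lower, 1.92%. The 149 include vmhc, myl7 and nppa, which helped to place borders, so their calls are in part set by the windows. Lower calls of other heart muscle genes are not independent of the borders either, since heart muscle genes helped to place them. All 254 had the same sign in both hearts, but passing over 2 hearts selects for this, so the agreement is not separate evidence. The balance of directions was not stable, with 201 higher and 162 lower when the outflow tract window of heart 1 began at section 2, 194 and 167 without border sections, 190 and 157 without sections under 10000 reads, 193 and 141 with no filter on low counts, 375 and 122 with voom weights and 1326 and 297 with limma on log2(CPM + 1). Over all 3 hearts, 90 of 7939 genes passed, of which 21 were higher (0.265%) and 69 lower (0.869%); scaling by total reads gave 34 higher and 67 lower, and 77 of the 254 genes of hearts 1 and 2 passed over 3 hearts too. Without heart 1 or without heart 2, no gene passed over the remaining pair, with 9 and 12 genes at an unadjusted p under 0.05. With the spike-in transcripts as the scale, no gene passed in either comparison, with 618 genes at an unadjusted p under 0.05 over 3 hearts and 582 over hearts 1 and 2, so the calls below are calls on shares of the reads of a library and not on amounts of RNA per section. Windows are mixtures of cells, and fewer cells of a type cannot be told apart from less RNA per cell.

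**Figure D2:**
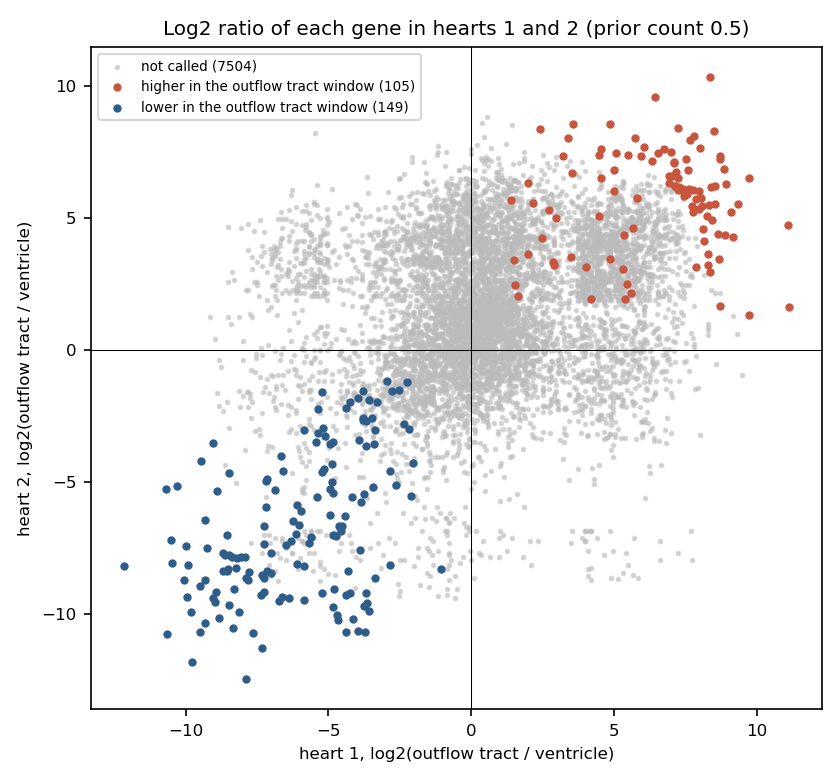
Each point is a gene tested over hearts 1 and 2, with the log2 ratio of outflow tract to ventricle in heart 1 on the horizontal axis and in heart 2 on the vertical axis. The 105 genes called higher lie at the upper right and the 149 called lower at the lower left, a placement that passing over both hearts selects for.

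Genes of the contractile apparatus were lower in the outflow tract window, and the natriuretic peptide gene nppb had the smallest p of all. Its level was 0.0240 per 10000 in the outflow tract window and 29.98 in the ventricle window of heart 1, 0.0518 and 17.8 in heart 2, while heart 3 had 0 and 11.4. The outflow tract window was below the ventricle window in every heart, by 1249.7-fold, 344-fold and at least 5.59-fold, and the log2 fold change was -9.22 ± 0.56 (SE) over hearts 1 and 2 and -9.31 ± 1.36 over 3 hearts, with an adjusted p from the quasi-likelihood test of 1.1e-27 and 0.00037. Hearts 1 and 2 leave 1 residual degree of freedom a gene. The p-values and SE over these hearts thus rest on spread shared across genes, and not on the spread between 2 animals alone. The gene nppa, which encodes the related atrial natriuretic peptide and which the study used as a chamber marker, had 0.366 against 43.2 per 10000 in heart 1, 0.670 against 84.8 in heart 2 and 0 against 72.6 in heart 3. Both peptides were lower in the outflow tract window than in the ventricle window of every heart.

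Of the 10 thick filament genes tested over hearts 1 and 2, 8 were lower and none higher, with a median log2 fold change of -6.85 (-6.63 with a gene that had no reads in 1 region placed at its bound), against 0.95 (0.87 at the bound) over all genes tested. These counts include vmhc and myl7, which helped to set borders. The light chain gene cmlc1 had 1.49 against 104 per 10000 in heart 1, 0.414 against 85.6 in heart 2, and 86.4 against 90.3 in heart 3. The heavy chain row MYH7 had 1.04 against 64.1, 0.169 against 31.7, and 36.1 against 31.05 per 10000. The 2 windows of heart 3 thus differed little for both genes, while those of hearts 1 and 2 differed by 61.7-fold to 207-fold. The gene mybpc3, which encodes cardiac myosin binding protein, differed in having no reads in the outflow tract window of heart 3. Its level was 0.0900 against 11.6 per 10000 in heart 1, 0 against 5.34 in heart 2 and 0 against 12.6 in heart 3, at least 6.15-fold lower there, and its log2 fold change of -8.72 ± 1.38 passed over 3 hearts (quasi-likelihood test, adjusted p = 0.00037). Over 3 hearts, 4 of 11 thick filament genes were lower.

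Of the 21 thin filament and Z disc genes tested, 12 were lower and none higher over hearts 1 and 2, with a median log2 fold change of -4.95, and 5 of 21 were lower over 3 hearts. The cardiac actin row ACTC1 had no reads against 10.5 per 10000 in heart 1, 0.0207 against 7.94 in heart 2 and none against 0.401 in heart 3. The troponin I row TNNI1 had 0.576 against 30.4 per 10000 in heart 1 and 0.121 against 41.5 in heart 2. In heart 3 its order was turned, with 112 per 10000 in the outflow tract window against 24.8. The troponin C gene tnnc1a and the tropomyosin gene tpm4a had the same turn, with 53.7 against 19.8 and 303 against 47.1 per 10000 in heart 3, and folds of 22.7 to 365 in the other direction in hearts 1 and 2. Actin, troponin and myosin rows have near-identical copies in the genome whose reads may be shared, so the level of a single row is uncertain.

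Genes that couple excitation to contraction were lower too. Of 11 calcium handling genes, 6 were lower over hearts 1 and 2 (median log2 fold change -5.67) and 4 of 12 over 3 hearts. The calcium pump gene atp2a2a had 0.0720 against 8.29 per 10000 in heart 1, 0.0725 against 2.69 in heart 2 and 19.7 against 5.17 in heart 3. The row CAMK2A, a kinase activated by calcium, had no reads in the outflow tract window of any heart and 2.44, 0.874 and 7.39 per 10000 in the ventricle windows, which made it at least 136-fold, 84.4-fold and 3.62-fold lower. The calcium channel gene cacna1c, the store protein gene casq2 and trdn, whose product anchors the release complex, were also among the genes lower over 3 hearts, a call that trdn lost with relative log expression factors, total reads and the stricter filter. Of 4 genes for ion channels and pumps tested, the potassium channel gene kcnh6 and the sodium pump subunit gene atp1b1a were lower over hearts 1 and 2 and neither passed over 3 hearts.

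In the list of natriuretic peptides and other chamber genes, 5 of 15 were lower in each comparison, none was higher, and the same 5 genes passed both. They were nppa, nppb, the myoglobin gene mb, LRRC10, which encodes a leucine-rich repeat protein of heart muscle, and BVES, a popeye family membrane protein that binds cyclic AMP. The study also used nppa to place the regions of heart 1, so the call of nppa is in part set by the window. LRRC10 had 0.00600 against 1.39 per 10000 in heart 1, none against 3.64 in heart 2 and none against 3.34 in heart 3. BVES had no reads in the outflow tract window of any heart, and 3.73 and 3.69 per 10000 in the ventricle windows of hearts 1 and 2. Myoglobin reads were at 0.0360 against 7.09 per 10000 in heart 1 and 0 against 12.1 in heart 2, and neither mb nor BVES had a read in heart 3, so their calls over 3 hearts rest on hearts 1 and 2.

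**Figure D3:**
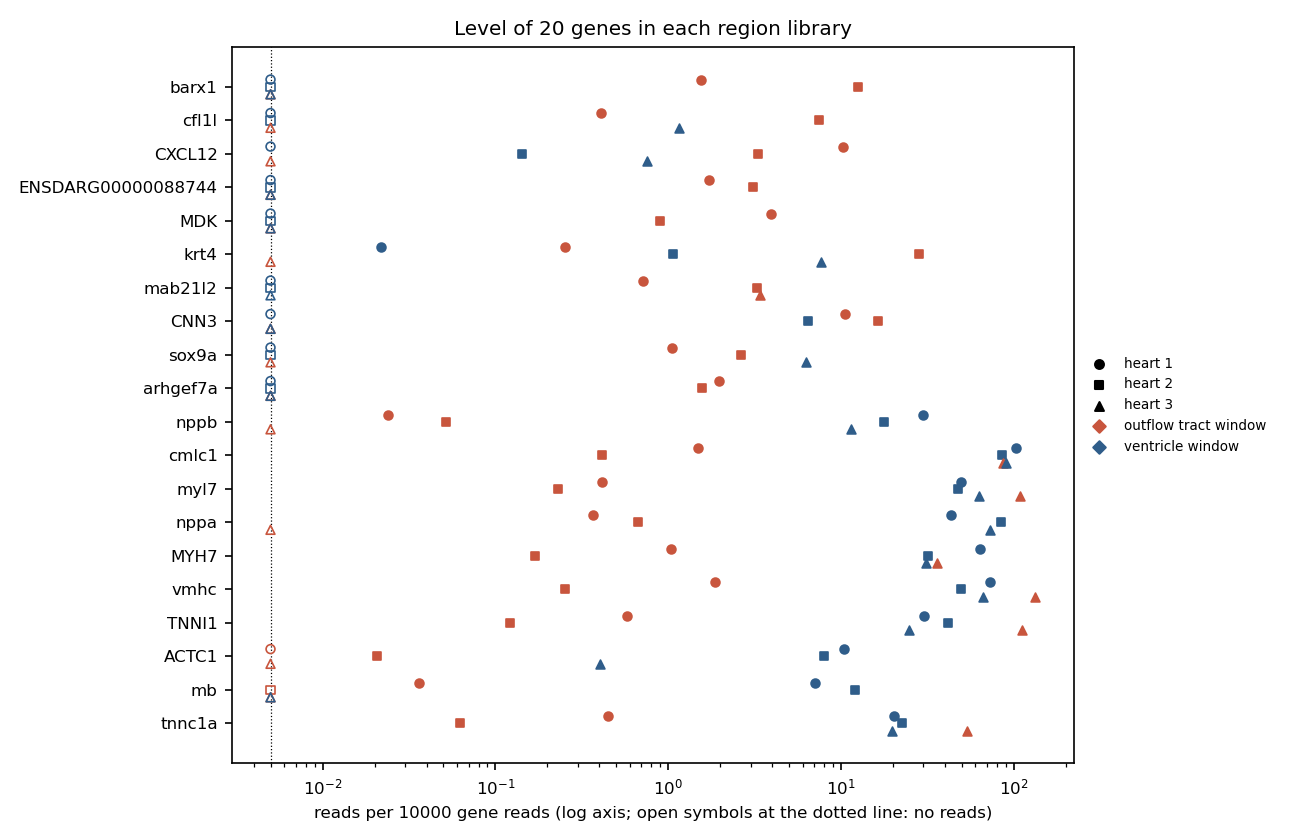
Level of 20 genes in each region library, in reads per 10000 gene reads on a log axis, for the 10 smallest p-values in each direction over hearts 1 and 2; open symbols mark libraries with no reads. The lower genes separate the windows of hearts 1 and 2, and the triangles of heart 3 lie at or above 19.8 per 10000 in both windows for cmlc1, myl7, MYH7, vmhc, TNNI1 and tnnc1a but not for nppa and nppb. The genes vmhc, myl7 and nppa helped to place borders, so their separation restates that placement in part.

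Among energy genes, glycolysis had the most calls, with 10 of 15 tested members lower over hearts 1 and 2, none higher, and a median log2 fold change of -2.90. The GAPDH row, for the enzyme that oxidises glyceraldehyde phosphate, had 0.618 against 29.4 per 10000 in heart 1, 0.180 against 15.1 in heart 2 and 36.1 against 24.3 in heart 3. The ENO1 row, an enolase, was lower in all hearts, with 0.174 against 7.84, 0.335 against 3.36 and 0 against 10.8 per 10000, and was the 1 glycolysis gene of 15 that passed over 3 hearts (log2 fold change -5.32 ± 1.24, quasi-likelihood test, adjusted p = 0.041). That call was lost with relative log expression factors, with total reads as the scale and with either other filter on low counts. PDK4, a kinase that turns off pyruvate dehydrogenase, had no reads in any outflow tract window and 1.48, 2.79 and 4.94 per 10000 in the ventricle windows, and passed in both comparisons. The muscle creatine kinase gene ckma was lower in hearts 1 and 2, with 1.31 against 26.6 and 0.114 against 18.95 per 10000, and higher in the outflow tract window of heart 3, with 89.1 against 33.9.

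Respiratory chain genes had fewer calls. Of 53 nuclear genes for oxidative phosphorylation, 5 were lower over hearts 1 and 2 with a median log2 fold change of -1.56, and 0 of 54 passed over 3 hearts. The 5 were the cytochrome c gene cycsb, the cytochrome oxidase gene cox6b1, the complex I row NDUFB9 and the ATP synthase genes atp5l and atp5mc1. For cycsb the levels were 0.996 against 15.9 per 10000 in heart 1, 2.00 against 11.4 in heart 2 and 0 against 10.6 in heart 3. In heart 3, cox6b1 and atp5mc1 had the higher share in the outflow tract window. The summed level of the nuclear genes was 92.3 against 319 per 10000 in heart 1 and 116 against 285 in heart 2. Heart 3 had the opposite order, with 495 against 248, and also for the citric acid cycle genes, with 104 against 51.1. None of the 20 citric acid cycle genes and none of the 12 mitochondrially encoded genes passed in either comparison, but 4 of the latter were lower over hearts 1 and 2 with relative log expression factors and with total reads as the scale. The mitochondrially encoded genes had a median log2 fold change of -1.12 over hearts 1 and 2, and the citric acid cycle genes -1.88. With spike-in scaling the former became 0.32, while the median of all genes tested moved from 0.95 to 2.28. The summed level of the mitochondrially encoded genes was 221 per 10000 in the outflow tract window and 498 in the ventricle window of heart 1, 199 and 331 in heart 2, while heart 3 had 31.97 and 413.

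The list of outflow tract, cushion and smooth muscle genes moved in both directions. Of 19 tested over hearts 1 and 2, 3 were higher and 2 lower (median log2 fold change 2.08, or 1.75 with genes at their bound), and over 3 hearts 2 of 20 were lower and none higher. The calponin row CNN3, an actin binding protein of smooth muscle and other cells, had 10.5 per 10000 in the outflow tract window of heart 1 and none in its ventricle window. In heart 2 it had 16.3 against 6.47, and in heart 3 no reads in either window. CNN3 was thus higher in both hearts in which it was read, by at least 484-fold and by 2.52-fold (log2 fold change 5.76 ± 0.60, quasi-likelihood test, adjusted p = 3.4e-06). The T-box row TBX2 had 1.49 against 0.0939 per 10000 in heart 1 and 3.70 against 0 in heart 2.

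The lower members of that list were the smooth muscle actin gene acta2 and the row TAGLN, a smooth muscle actin binding protein. In embryonic hearts both are also read in cardiac muscle. The level of acta2 was 0 against 2.94 per 10000 in heart 1, 0.0242 against 1.13 in heart 2 and 0 against 0.312 in heart 3, and that of TAGLN was 0.00600 against 1.11, 0 against 0.780 and 0 against 0.445. Both were lower in the outflow tract window in hearts 1 and 2 and passed over 3 hearts, with heart 3 below what its depth could show. Both calls over 3 hearts were lost with relative log expression factors and with no filter on low counts, and that of TAGLN also with the stricter filter. The smooth muscle myosin gene myh11a had 54 reads against 0 in heart 1 and 12 against 0 in heart 2, and did not pass (quasi-likelihood test, adjusted p = 0.63).

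No member of the second heart field and arterial pole list passed in either comparison, among 18 tested over hearts 1 and 2. Its median log2 fold change was -0.14, and 1.19 with spike-in scaling, which moved the median of all genes tested from 0.95 to 2.28. The row MEF2C, a transcription factor that zebrafish second heart field cells need, had 0.312 against 1.71 per 10000 in heart 1 and 0.0967 against 1.37 in heart 2, while hand2, required for heart and arch development, had 6.36 against 4.05 per 10000 in heart 1 but 3.49 against 5.03 in heart 2, with a log2 fold change of 0.02. None of 18 endothelial and endocardial genes passed either. Their median was -0.75 over hearts 1 and 2 and 0.75 with spike-in scaling, below that of all genes with both scales. The endothelial adhesion gene cdh5 had 1.63 against 3.03 per 10000 in heart 1, 0.556 against 5.53 in heart 2 and 0 against 21.7 in heart 3.

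Some genes of pharyngeal arch mesenchyme were higher in the outflow tract window of hearts 1 and 2. Of 34 arch and neural crest rows, 22 passed the filter on low counts, and of these 5 were higher, none was lower and 17 were not called, with a median log2 fold change of 5.29 (3.01 at the bound), against 0.95 (0.87) over all genes. Of the 22, 12 had no reads in 1 of the regions, against 1133 of 7758 among all genes tested. These 12 could pass the filter only through the other region. The median and the absence of lower members are thus in part set by the filter. Over 3 hearts 2 of 22 were higher. The homeobox gene barx1, which acts in arch mesenchyme and in the patterning of jaw joints, had the smallest p among all genes that were higher. It had 257 reads in the outflow tract window of heart 1 (1.54 per 10000) and 3654 in that of heart 2 (12.6 per 10000), and no reads in any ventricle window or in heart 3. The level was at least 71.1-fold higher in heart 1 and at least 178-fold higher in heart 2, and the difference passed over hearts 1 and 2 (quasi-likelihood test, adjusted p = 2.7e-18). Its reads were not spread evenly in heart 1, where 97.3% came from 1 section, whereas all 6 outflow tract sections of heart 2 held reads.

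The other arch members that passed were twist1a and snai2, transcription factors of crest and mesenchyme, and both PRRX1 rows, homeobox factors of limb and face mesenchyme. The row PRRX1 with the identifier ENSDARG00000042027 had 290 against 0 reads in heart 1 and 206 against 0 in heart 2, and passed over 3 hearts as well (quasi-likelihood test, adjusted p = 0.045), with no reads in heart 3, a call lost with relative log expression factors and with no filter on low counts. Other arch and crest rows, chosen after their values were seen, were read only in the outflow tract windows of hearts 1 and 2 and did not pass. SOX10, a factor of crest cells and their glia, had 73 and 52 reads, DLX5, which patterns the arches, 31 and 239, and FOXF1, a mesenchymal factor, 49 and 103. Summed over 34 rows, the list had 15.6 per 10000 in the outflow tract window and 1.76 in the ventricle window of heart 1, 29.9 and 3.54 in heart 2, while heart 3 had 1.36 and 6.90. The windows of heart 3 were in the opposite order, on 1 row read in its outflow tract window.

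Cartilage genes were the list with the largest share of its tested members called higher, 6 of 10 over hearts 1 and 2, with none lower and a median log2 fold change of 5.51 (3.93 at the bound). Of the 10, 5 had no reads in 1 region, against 1133 of 7758 among all genes tested, and so passed the filter through the other. Over 3 hearts none of 10 passed. The 6 were sox9a and SOX9, the transcription factors that drive cartilage formation, the collagens col2a1b, COL2A1 and COL9A2, and hapln1a, which links hyaluronan to proteoglycans and is also made in embryonic hearts. For sox9a the levels were 1.05 per 10000 against 0 in heart 1, 2.65 against 0 in heart 2 and 0 against 6.24 in heart 3. COL2A1 had 1.61 against 0 per 10000 in heart 1, 0.290 against 0 in heart 2 and 0 against 2.81 in heart 3. Both were higher in the outflow tract windows of hearts 1 and 2, and in heart 3 both were read only in the ventricle window. In heart 1, 1 section gave 94.8% of the COL2A1 reads and 91.8% of the SOX9 reads of the outflow tract window, but 46.3% for sox9a. The summed cartilage level of its outflow tract sections ran from 0 to 36.45 per 10000. Their median was 3.56, against 2.74 in the ventricle sections. In heart 2 the medians were 17.8 and 4.55.

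Of 32 genes for collagens, laminins and other matrix, 7 were higher and none lower over hearts 1 and 2, against 1.35% higher and 1.92% lower over all genes tested. The median log2 fold change was 2.26, against 0.95 over all genes. Of the 32, 6 had no reads in 1 of the regions, against 1133 of 7758 among all genes, and so passed the filter through the other. Over 3 hearts, 3 of 33 were higher. Those 3 were both COL12A1 rows, a fibril-associated collagen, and TNC, or tenascin C, a matrix protein of developing mesenchyme. TNC had 1.22 per 10000 against 0 in heart 1 and 1.962 against 0 in heart 2. COL11A1, a cartilage fibril collagen, had 2.22 against 0 and 5.01 against 0.284. None of the 3 had a read in heart 3, so the 3-heart calls carry no value from that heart. The others were the fibronectin gene fn1b, the microfibril gene mfap2 and COL6A2.

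The list of skin, keratin and junction genes had 3 of 11 tested members higher over hearts 1 and 2 and none of 13 over 3 hearts. By their median, the tested members were not raised above other genes. The median log2 fold change was 0.76 over hearts 1 and 2, against 0.95 over all genes tested, with 7 of 11 members positive. Over 3 hearts it was -0.47, against 0.47 over all genes. The 3 higher members were krt4 and krt91, keratins of the embryonic epidermis, and the claudin gene cldnb. The level of krt4 was 0.252 against 0.0217 per 10000 in heart 1, 28.3 against 1.06 in heart 2 and 0 against 7.66 in heart 3. In heart 1 the difference rested on 42 reads against 3, and 97.6% of the former came from 1 section. TP63, a defining factor of basal epidermis chosen here after its values were seen, had no reads in either window of heart 1 and 245 against 0 in heart 2. The summed skin level was 35.2 against 29.7 per 10000 in heart 1, 119 against 32.8 in heart 2 and 85.7 against 57.6 in heart 3. Over all 34 rows, most of them not tested, it was thus higher in the outflow tract window of each heart. The medians of the sections had this order in heart 2, with 123 against 32.3. They had the opposite order in hearts 1 and 3, with 23.6 against 33.2 and 19.9 against 46.8. The actin regulator gene cfl1l, which was not in this list, had 0.408 against 0, 7.44 against 0 and 0 against 1.16 per 10000.

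Other tissues were represented unevenly. Of 12 rows for pharyngeal endoderm and thyroid, 5 were read in the outflow tract window of heart 1 and 10 in that of heart 2, against 1 in each of their ventricle windows and none in heart 3. Their summed level was 1.29 per 10000 in the outflow tract window of heart 1 and 13.5 in that of heart 2. The ventricle windows had 0.00722 and 0.165, on 1 and 7 reads, and that of heart 2 was the shallower of its windows. Only 1 of the 12 rows was tested, and it was not called in either comparison. Skeletal muscle genes were lower in the outflow tract window, 4 of 8 tested over hearts 1 and 2, and the 4 were ckma, MYL1 and both ACTA1 rows, which heart muscle shares. MYOD1, which defines skeletal muscle precursors, had 9 against 13 reads in heart 1 and 14 against 0 in heart 2. Among 6 red blood cell genes, the globin gene hbae3 and the spectrin row SPTB were lower over hearts 1 and 2. The hbae3 call rested on heart 2, with 0 against 0.662 per 10000, which was 28 reads of 1 ventricle section, while heart 1 had 11.7 against 18.9, 92.4% and 95.8% of these from 1 section each. Heart 3 went the other way, with 16 reads in the outflow tract window and none in the ventricle window. None of 7 genes of neutrophils and macrophages passed, and of 5 neural genes only mab21l2 did. The part of skin, arch, endoderm and cartilage tissue in the higher genes was not tested.

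**Figure D4:**
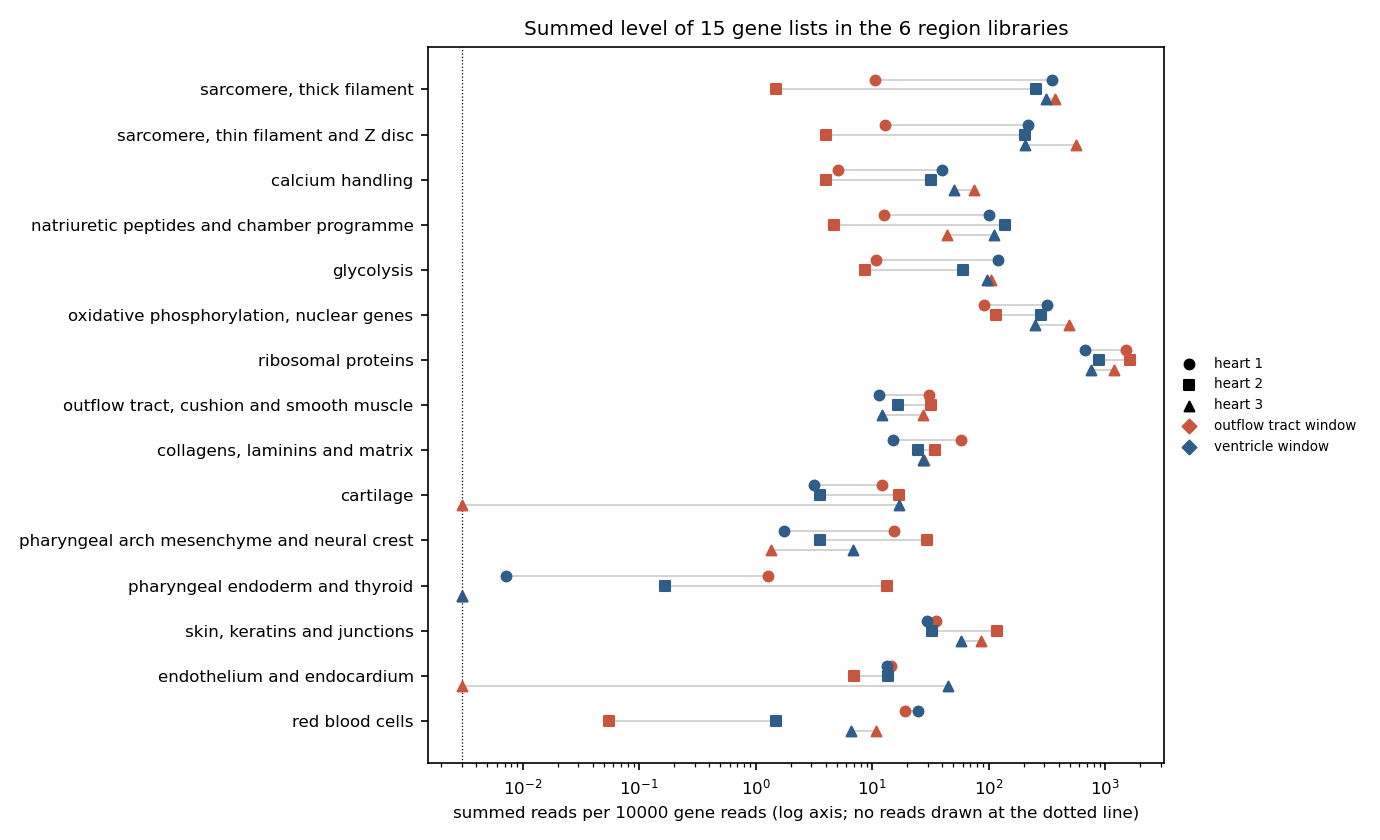
Summed level of 15 gene lists in the 6 region libraries, in reads per 10000 gene reads on a log axis, with a line joining the windows of each heart. Muscle lists lie far lower in the outflow tract windows of hearts 1 and 2, arch, cartilage and endoderm lists lie higher there, and heart 3 has thick filament levels of 369 and 311 in its windows and no cartilage or endothelial reads in its outflow tract window.

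Signalling genes that passed were led by chemokine and fibroblast growth factor components. Of 37 genes for guidance, chemokines and fibroblast growth factors, 5 were higher and 2 lower over hearts 1 and 2. Over all genes tested, 1.35% were higher and 1.92% lower. The median log2 fold change was 2.66 (2.13 at the bound), against 0.95 (0.87) over all genes. Of the 37, 11 had no reads in 1 of the regions, against 1133 of 7758 among all genes tested. These 11 could pass the filter on low counts only through the other region, so the median is in part set by the filter. The ligand row CXCL12, a chemokine that guides migrating cells, had 10.2 per 10000 against 0 in heart 1, 3.32 against 0.142 in heart 2 and 0 against 0.757 in heart 3. It was read in 5 of 7 outflow tract sections of heart 1 and 4 of 6 of heart 2, at least 473-fold and 23.4-fold above the ventricle window (quasi-likelihood test, adjusted p = 5.6e-10 over hearts 1 and 2). Its scavenging receptor ACKR3 had 0.636 against 0 per 10000 in heart 1 and 1.36 against 0 in heart 2, so ligand and scavenger were higher in the same window.

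Among fibroblast growth factor genes, the receptor gene fgfr1a had 1.99 against 0 per 10000 in heart 1 and 1.45 against 0 in heart 2, and FGFR2 had 2.81 against 0.0506 and 1.21 against 0.165. Both receptors were higher, and fgfr1a also passed over 3 hearts (quasi-likelihood test, adjusted p = 0.018) with no reads in heart 3. The 2 lower members, SPRY4 and DUSP6, are inhibitors that the pathway itself switches on. The ligand gene fgf8a had no reads in the outflow tract windows of hearts 1 and 2 and 0.311 and 0.260 per 10000 in the ventricle windows, and did not pass. EPHB2, an ephrin receptor, was the remaining higher member.

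Of 28 genes for BMP and TGF beta signalling, 3 were higher and 1 lower over hearts 1 and 2, and none passed over 3 hearts. Over all genes tested in hearts 1 and 2, 1.35% were higher and 1.92% lower. The targets ID1 and ID3, inhibitors of helix-loop-helix factors, had 12.03 against 3.27 and 3.73 against 0.173 per 10000 in heart 1, and 17.8 against 2.06 and 1.63 against 0.213 in heart 2. The related id2b went the other way, with 0.420 against 3.42 in heart 1, 0.200 against 2.88 in heart 2 and 0 against 2.72 in heart 3. TGFBI, a matrix protein induced by TGF beta, had 0.594 against 0 and 1.74 against 0. Members of one inhibitor family thus differed in direction between the same windows of hearts 1 and 2. In heart 3 they did not, since ID1, ID3 and id2b were all read in the ventricle window alone. The section with the most reads there held 97, 10 and 41 of them.

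In the Wnt list, the ligands WNT9B and wnt11r were lower, 2 of 26 tested over hearts 1 and 2, against 1.92% of all genes tested. WNT9B had no reads in any outflow tract window and 0.347, 1.23 and 1.60 per 10000 in the ventricle windows, and also passed over 3 hearts (log2 fold change -7.34 ± 1.99, quasi-likelihood test, adjusted p = 0.012). Its reads came from 2, 2 and 1 ventricle sections of hearts 1 to 3. The level in heart 3 lay under the 2.04 per 10000 that the outflow tract window of that heart could have shown. For wnt11r, a non-canonical ligand of heart muscle, the levels were 0.0660 against 1.06 in heart 1 and 0 against 0.685 in heart 2, and its call was lost with total reads, with no filter and with each other choice of sections. None of 16 Notch genes passed. Their median log2 fold change was -0.43, and 0.92 with spike-in scaling, against 0.95 and 2.28 over all genes tested. NOTCH1 had 0.144 against 0.795 per 10000 in heart 1, 0.0518 against 0.969 in heart 2 and 0 against 2.54 in heart 3, whereas NOTCH3 had 1.63 against 0.267, 0.926 against 0.142 and no reads.

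**Figure D5:**
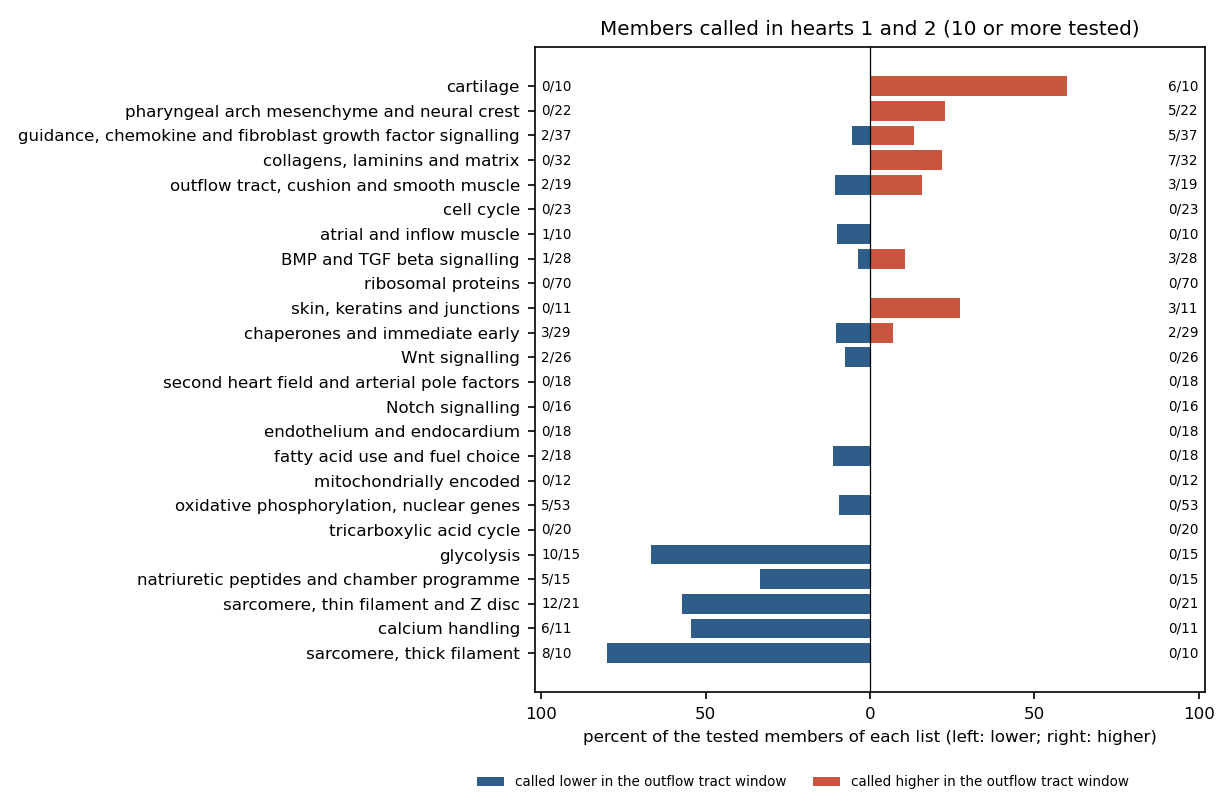
Percent of the tested members of each gene list that passed over hearts 1 and 2, lower to the left and higher to the right, for lists with 10 or more members tested; the counts stand at the margins. Sarcomere, calcium, chamber and glycolysis lists have members on the lower side alone, and cartilage, arch, matrix and skin lists on the higher side alone.

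The remaining genes with the smallest p-values among those higher over hearts 1 and 2 did not share a list, and mab21l2 was in the neural list. An MDK row, for the heparin-binding growth factor midkine (ENSDARG00000020708), had 3.95 per 10000 against 0 in heart 1 and 0.895 against 0 in heart 2, and passed over 3 hearts (quasi-likelihood test, adjusted p = 0.011) with no reads in heart 3. The gene arhgef7a, an exchange factor for small GTPases, had 1.97 against 0 and 1.58 against 0, and the unnamed row ENSDARG00000088744 had 1.72 against 0 and 3.09 against 0. The gene mab21l2, known for its role in eye development and also expressed in the arches, had 0.714, 3.28 and 3.40 per 10000 in the 3 outflow tract windows and no reads in any ventricle window. It was the 1 gene of these 10 read in the outflow tract window of heart 3, on 5 reads of 1 section.

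Most of the genes higher over hearts 1 and 2 had no reads in the ventricle windows of those hearts. Of the 105 higher genes, 59 had no reads in either ventricle window. Of the 149 lower genes, 35 had none in either outflow tract window. Among all 7758 genes tested, 1133 had no reads in 1 of the regions. Over 3 hearts, 20 of the 21 higher genes had no reads in those ventricle windows. Of the 69 lower genes, 28 had none in those outflow tract windows. Among all 7939 genes tested over 3 hearts, 1035 had no reads in 1 of the regions, taken over all 3 hearts. A gene with no reads in 1 region could pass the filter on low counts only through the other. These counts are thus in part set by the filter. The outflow tract window of heart 2 was also deeper than its ventricle window, with 2895368 against 423169 gene reads. A low level was thus more easily missed in the latter. Reads of the higher genes came from 3 or more outflow tract sections in both hearts for 84 of the 105, and 8 were read in 1 section of heart 1. Among the 149 lower genes, 125 were read in 3 or more ventricle sections of both hearts and 7 in 1 section of heart 2.

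Heart 3 gave a different picture for the genes called in hearts 1 and 2. Of the 149 lower genes, 25 had no reads in heart 3, 79 were read in its ventricle window alone, 47 of them at a level that the outflow tract window could have shown, and 45 had reads in its outflow tract window, of which 39 had the higher share there. Of the 105 higher genes, 71 had no reads in heart 3, 28 were read in its ventricle window alone, and of the 6 read in its outflow tract window 2 had the higher share there. Over 3 hearts, 62 of the 69 lower genes had the same sign in each heart, but only 2 had a read in the outflow tract window of heart 3. In that heart 60 of the 69 were read in the ventricle window alone, 33 of them at a level that the outflow tract window could have shown. Of the 21 higher genes over 3 hearts, 13 had no reads in heart 3, and 6 had the same sign in all hearts. These 6 were PMM2, polr3glb, mab21l2, DMGDH, vamp2 and ENSDARG00000087263, and all the reads of each in the outflow tract window of heart 3 came from 1 section. PMM2, an enzyme of sugar phosphate metabolism, had the smallest p of the 6, with 8 against 0 reads in heart 1, 388 against 0 in heart 2 and 95 against 0 in heart 3.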

How the data were processed

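The authors deposited tables of whole-number read counts per gene and section, one per heart, made from CEL-seq libraries; reads were mapped to Zv9, with BWA 0.6.2 among the tools in the submitters' notes. The deposited counts are not normalized, and strand handling is not given in the sources used here. The reference table gave symbols for 12905 of the 16023 gene rows, and 1557 more were named by matching their profile to 1959 rows of the study's source table. In all, 171 columns outside the tissue sections were not used, and spike-in rows were left out of totals.

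Counts were summed per window and heart. The test was a negative binomial quasi-likelihood model with trimmed-mean factors and the heart as a block, written for this work (Python 3.11.15, numpy 2.4.6, scipy 1.17.1), with variances squeezed by limma 3.58.1 in R 4.3.3, Benjamini-Hochberg adjustment and a threshold of 0.05. It stands in for the edgeR test that the authors used and that had been planned, because the format of the tables kept their columns from being recognised as counts automatically. Genes needed 10 reads in 2 region libraries; fold changes used a prior count of 0.5. Both regions of a heart come from the same animal, which gives the pairing; deviations of paired libraries correlated at 0.0157, 0.0916 and 0.0410 over 3 hearts and 0.0647 over hearts 1 and 2. Sections of 1 heart are not replicates.

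The windows, the 33 gene lists and the rule for named genes were chosen with earlier results of these data known. The rule took the 10 smallest p-values per direction among genes that passed with the same sign in every heart, up to 4 genes per list by p over hearts 1 and 2, and the genes that set windows. Lists are described by counts and medians, with no set test.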

Additional observations from a re-analysis of the deposited data

How the results depend on the processing

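The counts of genes passing depended on how reads were scaled and how spread was shared. Over 3 hearts, 90 genes passed. The number was 0 with spike-in totals, 40 with a stricter filter on low counts, 347 without sections under 10000 reads, which drops the outflow tract window of heart 3, 0 with limma on log2(CPM + 1), 0 with limma on mean section CPM (308 and 399 genes at an unadjusted p under 0.05), and 143 with voom weights, an alternative chosen after seeing the data. Leaving out 1 heart gave 0 to 254 genes. Over hearts 1 and 2, 254 genes passed, with 0 under spike-in totals, 1623 with limma on log2(CPM + 1), 110 with limma on mean section CPM and 497 with voom weights; leaving out 1 heart leaves no test there. The other windows, factors and filters gave 72 to 119 and 241 to 363 genes. The cause of these shifts was not tested, and DESeq2 size factors and its test were not run. The median log2 fold change of all genes over hearts 1 and 2 was 0.95 with trimmed-mean factors, 0.86 with relative log expression factors, 1.01 with total reads and 2.28 with spike-in totals.

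With no replicate block, 1253 genes passed over 3 hearts, 1024 of them higher, and 1573 over hearts 1 and 2, 1260 of them higher; of the genes that passed with the block, 90 and 251 passed without it too.

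Named genes that changed direction had not passed. With spike-in totals the log2 fold change over hearts 1 and 2 became 0.20 for FABP3, 0.059 for MT-CYB, 0.23 for MT-ATP6, 0.13 for MT-ND4 and 0.27 for MT-ND1. It became 0.90 for SYT1 with voom weights and -0.26 for ALDH1A2 with no replicate block. Depth limits heart 3, whose outflow tract window shows no level under 2.04 per 10000.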

Other observations

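None of 70 ribosomal protein genes passed over hearts 1 and 2 with trimmed-mean factors, but 2 were higher with relative log expression factors and 14 with total reads as the scale. Their median log2 fold change of 0.96 lay beside the 0.95 of all genes, although their summed level was 1506 per 10000 gene reads in the outflow tract window and 673 in the ventricle window of heart 1, 1645 and 885 in heart 2, while heart 3 had 1199 and 754. None of 23 cell cycle genes passed, with a median of 1.72. PCNA, a clamp of the replication fork, had 13.96 against 5.84 per 10000 in heart 1, 22.2 against 6.21 in heart 2 and 0 against 19.7 in heart 3.

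Of 29 chaperone and immediate early genes, 2 were higher and 3 lower over hearts 1 and 2, against 1.35% and 1.92% of all genes tested. Over 3 hearts hspb11 and SOCS3, an inhibitor of cytokine signalling, were lower. The lower ones over hearts 1 and 2 were the small heat shock genes hspb7, hspb11 and HSPB1, which muscle uses. The higher ones were hsp90b1, a chaperone of the endoplasmic reticulum, and JUNB, an immediate early factor. For hspb11 the levels were 0 against 2.03 per 10000 in heart 1 and 0 against 7.66 in heart 2. HSPB1 had 0.174 against 15.8 in heart 1, 0.204 against 9.93 in heart 2 and 25.2 against 11.3 in heart 3. JUNB had 1.58 against 0 in heart 1 and 0.691 against 0 in heart 2.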
